A study of Mus musculus with 11 samples.

Results

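Transcript levels of 9 sialyltransferase genes were examined in CD4+ T cells sorted from mouse spleen. The genes were St6gal1, the 6 members St6galnac1 to St6galnac6, St8sia4 and St8sia6, chosen by name as the enzymes that add sialic acid in alpha-2,6 or alpha-2,8 linkage, chiefly to glycoproteins. All 9 had a probe set on the custom Affymetrix glycan gene array, 1 each, out of 909 genes named among its 1246 probe sets.

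The sorted populations compared were 3 in number, all from female mice of the C57BL/6 strain with no engineered allele and no treatment given in the labels. The series text names the spleen as the source of all 3. The CD4+CD25+(CD45RBlow) population is called Treg by the labels (n = 3, replicates 1, 2 and 4). The CD4+CD25-CD45RBlow population (n = 4), labelled activated/memory, and the CD4+CD25-CD45RBhigh population (n = 4), labelled naive, are called CD45RBlow and CD45RBhigh cells here, and their labels give mice of 4 to 6 weeks where the Treg labels give no age. CD25 belongs to the high-affinity receptor of interleukin-2, and CD45RB is a form of a surface phosphatase that is abundant on naive CD4+ cells. No label says whether replicates came from separate animals or pools, so p-values measure the spread between these samples. Il2ra, the gene of CD25, read 9.84 ± 0.17 in Treg cells (SD, n = 3), 6.17 ± 0.36 in CD45RBlow cells and 4.07 ± 0.27 in CD45RBhigh cells (SD, n = 4 each). Of the 9 genes listed to check the sort, 4 had a named probe set, and the Treg factor Foxp3 was not among them. The cells were sorted on CD25, so the Il2ra values follow the gate and do not check the Treg label.

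Values are log2 expression per probe set as the authors deposited them, a robust average over probes known as RMA, so a difference of 1 is a doubling. Array medians lay between 4.85 and 4.94. The first quartile of all values, 3.64, is used as a mark of readings near background, with the caution that Csf1r, a receptor gene of myeloid cells, averaged 5.02 to 5.07 in these sorts. A gene was called where its adjusted p was under 0.05 in limma, with Benjamini-Hochberg adjustment over all 1246 probe sets. Each population stands in 2 of the 3 comparisons, so the comparisons share arrays. Arrays of replicates 1 and 2 deviated from their population means in the opposite sense to arrays of replicates 3 and 4 (correlations of -0.65 to -0.18 across probe sets). Deviations within a population sum to 0, so the negative sign is in part built in by subtracting the mean. Once population was accounted for, 257 probe sets (20.6%) were called between the replicate sets. No label says what the sets are, so values inside each are given beside the calls.

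Sialic acids are acidic sugars that cap the outer ends of glycans, and the linkage decides which lectins can bind. ST6GAL1 caps the galactose of N-glycan antennae in alpha-2,6 linkage and so makes the ligand of CD22. The ST6GALNAC enzymes add alpha-2,6 sialic acid to the first GalNAc of O-glycans or to short sialylated chains, and the ST8SIA enzymes extend a sialic acid already present in alpha-2,8 linkage. On T cells, sialylation of N- and O-glycans is known to change with activation and to mask galactose from galectins and plant lectins.

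Promoter sequence is given first for 3 genes: St8sia6, which had the largest differences, St8sia4, whose call changed with the replicate block, and St6galnac4, which was called higher in Treg than in CD45RBlow cells. The sequences are those of RefSeq on GRCm38.p6, from 250 bases before to 50 after the start site, which the table holds for 6 of the 9 genes. The windows are chr2:13793471-13793770 on the minus strand (St8sia6), chr1:95667545-95667844 on the minus strand (St8sia4) and chr2:32586828-32587127 on the plus strand (St6galnac4). Capitals mark matches, on both strands, to the letters of a RUNX site (TGTGGT), an AP-1 site (TGANTCA), a STAT site (TTCNNNGAA), an NFAT site (GGAAAA) or a GC box (GGGCGG).
St8sia6: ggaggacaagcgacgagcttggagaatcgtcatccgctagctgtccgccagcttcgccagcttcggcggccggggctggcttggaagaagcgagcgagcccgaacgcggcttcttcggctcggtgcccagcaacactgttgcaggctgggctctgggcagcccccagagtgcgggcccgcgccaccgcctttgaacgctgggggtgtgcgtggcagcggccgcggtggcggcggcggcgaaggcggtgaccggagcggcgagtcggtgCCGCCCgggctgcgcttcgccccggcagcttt
St8sia4: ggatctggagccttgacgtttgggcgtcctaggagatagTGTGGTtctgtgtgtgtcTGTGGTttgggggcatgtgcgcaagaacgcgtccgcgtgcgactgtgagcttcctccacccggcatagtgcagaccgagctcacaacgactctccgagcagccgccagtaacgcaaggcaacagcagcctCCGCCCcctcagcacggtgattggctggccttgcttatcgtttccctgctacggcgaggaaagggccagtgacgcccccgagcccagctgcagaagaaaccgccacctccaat
St6galnac4: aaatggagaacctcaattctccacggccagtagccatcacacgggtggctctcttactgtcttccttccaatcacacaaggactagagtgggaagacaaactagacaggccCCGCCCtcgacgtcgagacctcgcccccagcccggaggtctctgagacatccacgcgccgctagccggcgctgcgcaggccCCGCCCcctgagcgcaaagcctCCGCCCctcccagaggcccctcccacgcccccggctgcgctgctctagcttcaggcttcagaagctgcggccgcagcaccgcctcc
The St8sia6 window has 1 GC box, 19 bases after the start, and 39 CG dinucleotides, more than 95.6% of all 32851 windows, which have a median of 7. The St8sia4 window has RUNX letters at -211 and -193 and 1 GC box at -63, and the St6galnac4 window has 3 GC boxes, at -139, -58 and -36. Over all windows 35.7% hold a GC box, 16.8% the RUNX letters, 23.4% the NFAT letters, 8.30% the STAT letters and 7.81% the AP-1 letters. None of the motifs overlapped another in these windows, and a match is a description of the letters only.

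**Figure D1:**
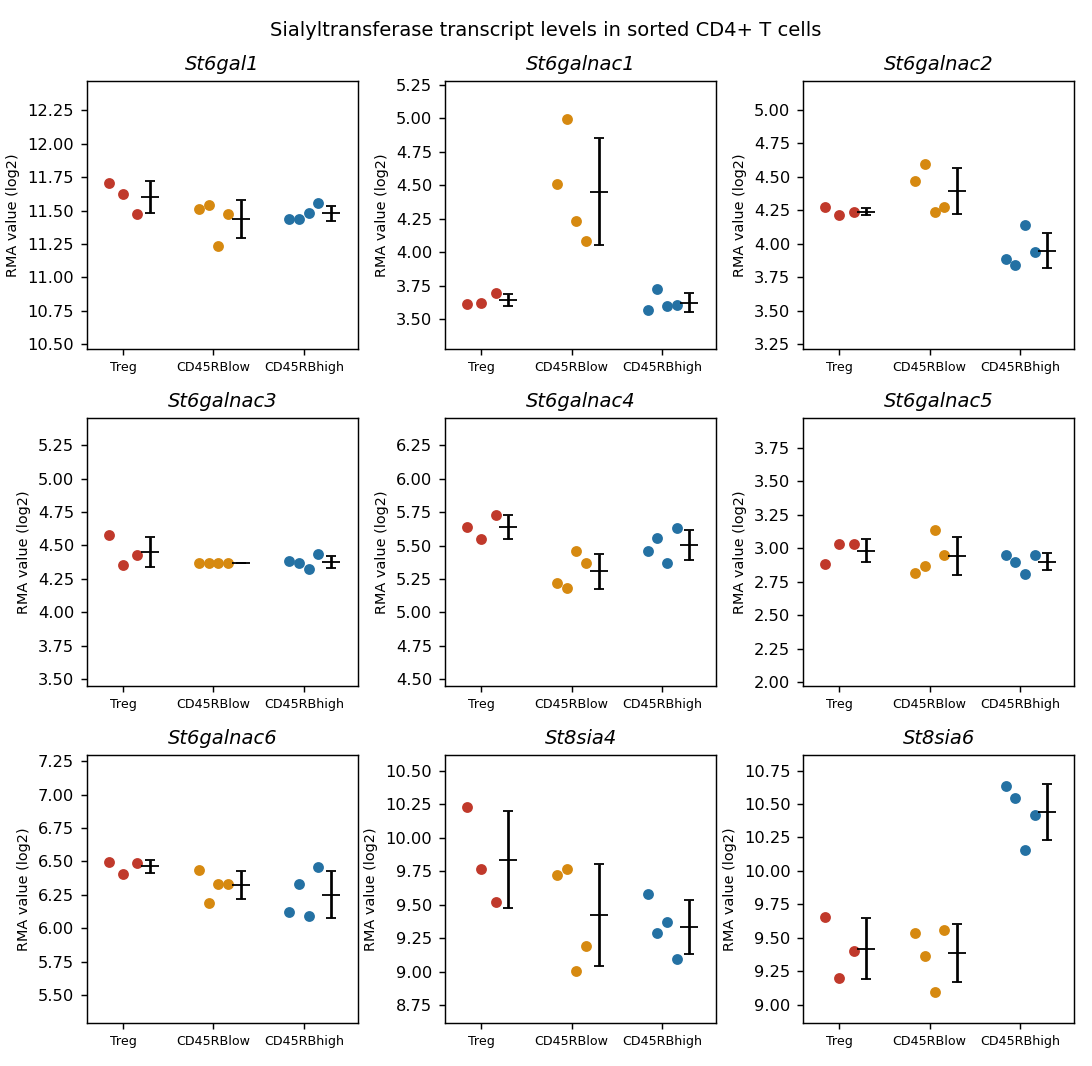
RMA values (log2) of the 9 sialyltransferases by population, with a point for each array in order of replicate number and the mean ± SD in black (Treg n = 3, CD45RBlow n = 4, CD45RBhigh n = 4). Every axis spans 2 log2 units. St8sia6 is high in CD45RBhigh arrays and St6galnac1 in CD45RBlow arrays, while St6gal1, St6galnac3 and St6galnac5 overlap in all populations.

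St8sia6 had the largest differences of the 9 genes in both comparisons with CD45RBhigh cells and separated CD45RBhigh cells from both populations with low CD45RB. The gene encodes an alpha-2,8-sialyltransferase that prefers O-glycans and makes disialic acid. It read 9.66, 9.20 and 9.40 in Treg replicates 1, 2 and 4. It read 9.54, 9.36, 9.09 and 9.55 in CD45RBlow replicates 1 to 4, against 10.64, 10.55, 10.16 and 10.42 in CD45RBhigh replicates 1 to 4. Every CD45RBhigh array therefore lay above every array of the other two populations, and the Treg and CD45RBlow arrays overlapped.

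St8sia6 fell in Treg cells relative to CD45RBhigh cells by 1.02 on the log2 scale (SE 0.15, 95% interval -1.35 to -0.69), which is 2.03-fold lower, with an adjusted p of 0.000433 in limma. It fell in CD45RBlow cells relative to CD45RBhigh cells by 1.05 (SE 0.14, 95% interval -1.36 to -0.75), or 2.08-fold, with an adjusted p of 0.000301. Between Treg and CD45RBlow cells the difference was 0.033 (95% interval -0.29 to 0.36), so these arrays leave room for a ratio between 0.815 and 1.28. Within replicates 1 and 2 the Treg and CD45RBlow differences from CD45RBhigh cells were -1.17 and -1.14. Within replicates 3 and 4 they were -0.88, with 1 Treg array, and -0.96. Both calls held in each of the 11 fits that left out an array. Where that array belonged to the population not compared, the difference itself could not change. The probe set's identifier carries the suffix s, which marks probes shared by several transcripts.

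The NK and CD8 T cell markers also differed between the populations, though not all in the same sense. Their summed level, the log2 of linear values added over 4 measured genes of 7 listed, ranged from 5.40 to 5.65 in Treg arrays, from 8.24 to 8.76 in CD45RBlow arrays and from 9.04 to 9.49 in CD45RBhigh arrays. Klrd1, a lectin-like receptor chain that made most of the sum in CD45RBlow and CD45RBhigh cells, averaged 3.93 in Treg, 8.28 in CD45RBlow and 9.22 in CD45RBhigh cells. Of the 4 genes, 0 rose and 2 fell in Treg against CD45RBhigh cells and 0 rose and 2 fell in Treg against CD45RBlow cells (3 with the block in each). All probe sets were called at 18.9% and 12.5% in these comparisons (26.5% and 19.7% with the block). Klra3, called with Klrd1 in the first, averaged 2.61 in Treg, 2.98 in CD45RBlow and 3.05 in CD45RBhigh cells. Klrk1 averaged 2.80, 3.03 and 2.87 in the same populations. These averages of Klra3 and Klrk1 all lay under the first quartile. In CD45RBlow against CD45RBhigh cells Klrd1 fell by 0.94 and Klrc1, another receptor chain of this family, rose by 0.59 (adjusted p = 0.0188). The part of these cells in the St8sia6 difference was not tested. Values of a sorted population are means over its cells, so fewer expressing cells and less RNA per cell cannot be told apart.

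St8sia4 encodes the polysialyltransferase that builds long alpha-2,8 chains on NCAM and neuropilin-2 and, in dendritic cells, on the chemokine receptor CCR7. It read 10.23, 9.77 and 9.52 in Treg replicates 1, 2 and 4. It read 9.73, 9.76, 9.01 and 9.19 in CD45RBlow replicates 1 to 4, and 9.58, 9.29, 9.37 and 9.09 in CD45RBhigh replicates 1 to 4. All 3 populations overlapped, although the Treg array was the highest within replicates 1, 2 and 4, narrowly so in replicate 2.

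The Treg mean of St8sia4 was 0.50 above CD45RBhigh cells (SE 0.21, 95% interval 0.031 to 0.98) and 0.42 above CD45RBlow cells (SE 0.21, 95% interval -0.056 to 0.89), and neither passed in limma (adjusted p = 0.143 and 0.293). With the replicate number as a block the first difference was 0.44 (SE 0.13) and did pass, at an adjusted p of 0.0276, and the second was 0.35 (adjusted p = 0.0909). With the replicate set in the model the first was 0.43 (adjusted p = 0.0347). St8sia4 was the 1 member that differed between the replicate sets themselves, with replicates 3 and 4 lower by a log2 difference of -0.44 (SE 0.11, adjusted p = 0.0138). Within replicates 1 and 2 the Treg to CD45RBhigh difference was 0.56 (adjusted p = 0.0428) and within replicates 3 and 4, with 1 Treg array, 0.29 (adjusted p = 0.432).

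**Figure D2:**
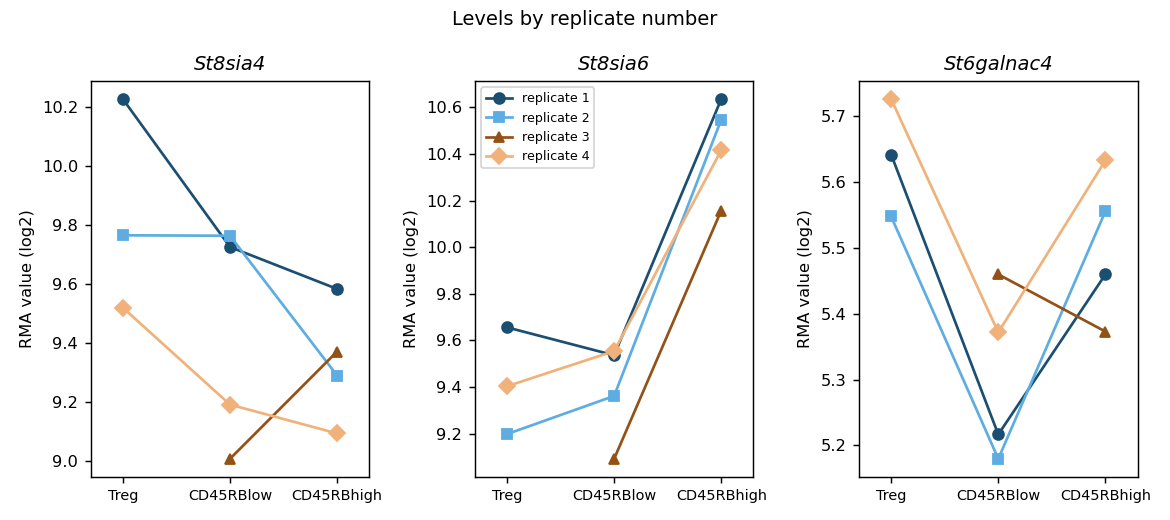
RMA values (log2) of St8sia4, St8sia6 and St6galnac4 in Treg, CD45RBlow and CD45RBhigh arrays, with lines that join arrays of 1 replicate number (no Treg array has number 3). For St8sia4 the lines of replicates 1 and 2 lie above that of replicate 4, and for St8sia6 all 4 lines are highest in CD45RBhigh cells.

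St6galnac1, whose product adds sialic acid to the first GalNAc of O-glycans and so makes the sialyl-Tn antigen, was higher in CD45RBlow cells than in either other population. It read 3.61, 3.62 and 3.70 in Treg replicates 1, 2 and 4. It read 4.51, 4.99, 4.23 and 4.08 in CD45RBlow replicates 1 to 4 and 3.56, 3.72, 3.60 and 3.61 in CD45RBhigh replicates 1 to 4. The CD45RBlow arrays lay above all others, and the spread among them (SD 0.40) was larger than in Treg (SD 0.05) or CD45RBhigh arrays (SD 0.07). Of the readings outside CD45RBlow cells, 2 of 3 in Treg and 3 of 4 in CD45RBhigh cells lay under the first quartile, so the differences rest on readings near background. The CD45RBlow readings, the highest at 4.99, also lay below the Csf1r averages of 5.02 to 5.07.

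St6galnac1 fell in Treg relative to CD45RBlow cells by 0.81 (SE 0.17, 95% interval -1.19 to -0.43), or 1.75-fold, with an adjusted p of 0.00845 in limma. It rose in CD45RBlow relative to CD45RBhigh cells by 0.83 (SE 0.16, 95% interval 0.48 to 1.18), or 1.78-fold, with an adjusted p of 0.00452. Treg and CD45RBhigh cells differed by 0.020 (95% interval -0.36 to 0.40). The sizes varied with the replicate set. The CD45RBlow to CD45RBhigh difference was 1.11 within replicates 1 and 2 and 0.55 within replicates 3 and 4 (adjusted p = 0.0368), and the Treg to CD45RBlow difference was -1.14 and, against 1 Treg array, -0.46 (adjusted p = 0.145). Among markers of other cell types, Klrc1 of the NK and CD8 list averaged 4.20 in Treg, 5.20 in CD45RBlow and 4.61 in CD45RBhigh cells, and Cd22 of the B cell list averaged 6.35, 6.64 and 6.06 in the same populations. Both were called in both comparisons with CD45RBlow cells. Other genes of the same lists had other orders. In the same populations Klrd1 averaged 3.93, 8.28 and 9.22, Cd74 averaged 8.95, 7.01 and 6.49, and Cd72 averaged 8.24, 7.39 and 7.70. The part of NK, CD8 T or B cells in the St6galnac1 values was not tested.

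St6galnac2, whose product acts on the core O-glycan Gal-GalNAc, was higher in CD45RBlow than in CD45RBhigh cells. It read 4.27, 4.22 and 4.23 in Treg replicates 1, 2 and 4. It read 4.47, 4.59, 4.23 and 4.27 in CD45RBlow replicates 1 to 4, against 3.88, 3.84, 4.14 and 3.93 in CD45RBhigh replicates 1 to 4. Every Treg and every CD45RBlow array lay above every CD45RBhigh array, and the Treg and CD45RBlow arrays overlapped. All readings, from 3.84 to 4.59, lay above the first quartile but below the Csf1r averages of 5.02 to 5.07. The St6galnac2 differences may therefore rest on readings near background.

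The rise of St6galnac2 in CD45RBlow over CD45RBhigh cells was 0.44 (SE 0.09, 95% interval 0.24 to 0.64), or 1.36-fold, with an adjusted p of 0.00726 in limma. It was 0.67 within replicates 1 and 2 and 0.22 within replicates 3 and 4, where it did not pass (adjusted p = 0.192). The Treg mean was 0.29 above CD45RBhigh cells (SE 0.10, 95% interval 0.076 to 0.51), which missed the threshold (adjusted p = 0.0647). That difference passed without CD45RBhigh replicate 3 (0.36, adjusted p = 0.0284) and without CD45RBlow replicate 2 (0.29, adjusted p = 0.0417). It also passed with only the arrays compared (adjusted p = 0.0497), with trend and robust moderation (adjusted p = 0.0494) and within replicates 1 and 2 (0.38, adjusted p = 0.0153). With the replicate block it did not pass (adjusted p = 0.0699), and within replicates 3 and 4, with 1 Treg array, it was 0.20. In GRCm38.p6 St6galnac1 and St6galnac2 are neighbours on chromosome 11, with 0 protein-coding genes between them. Both were higher in CD45RBlow than in CD45RBhigh cells. In Treg cells St6galnac1 read at the CD45RBhigh level and St6galnac2 between the other populations, and the difference between the genes in this was not tested.

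St6galnac4, whose product adds a second sialic acid to sialylated Gal-GalNAc to give the disialyl T structure, was higher in Treg than in CD45RBlow cells. It read 5.64, 5.55 and 5.73 in Treg replicates 1, 2 and 4, against 5.22, 5.18, 5.46 and 5.37 in CD45RBlow replicates 1 to 4. In CD45RBhigh replicates 1 to 4 it read 5.46, 5.56, 5.37 and 5.63, between and overlapping both. The Treg arrays all lay above the CD45RBlow arrays, the lowest Treg array at 5.55 and the highest CD45RBlow array at 5.46. Single Csf1r readings reached 5.19 in Treg and 5.18 in CD45RBlow cells, where the lowest St6galnac4 reading was also 5.18. The St6galnac4 difference may therefore rest in part on readings near background.

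The rise of St6galnac4 in Treg over CD45RBlow cells was 0.33 (SE 0.09, 95% interval 0.14 to 0.53), or 1.26-fold, with an adjusted p of 0.0296 in limma. The call ended without Treg replicate 1 (0.33, adjusted p = 0.0921), without Treg replicate 4 (0.29, adjusted p = 0.107), without CD45RBlow replicate 1 (0.30, adjusted p = 0.0869) and without CD45RBlow replicate 2 (0.29, adjusted p = 0.08). It also ended in limma with only the arrays compared (0.33, adjusted p = 0.0513). The rise was 0.40 within replicates 1 and 2 (adjusted p = 0.0255) and, with 1 Treg array, 0.31 within replicates 3 and 4. The CD45RBlow mean was 0.20 below CD45RBhigh cells (95% interval -0.38 to -0.018, adjusted p = 0.149). The probe set of St6galnac4 also carries the suffix s.

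**Figure D3:**
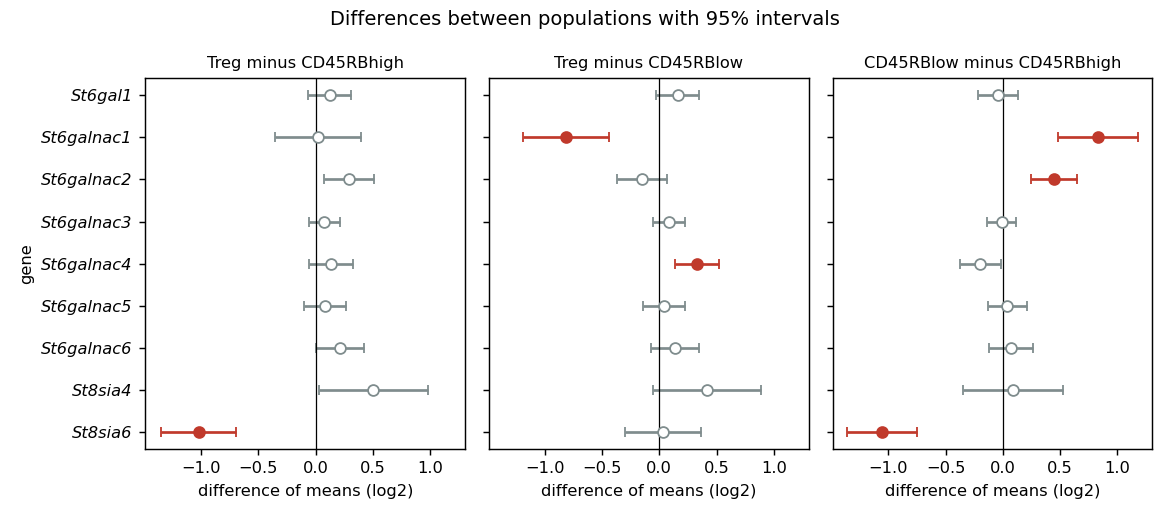
Differences of population means (log2) with 95% intervals for the 9 genes in the 3 comparisons, with Treg before CD45RBlow and CD45RBhigh and CD45RBlow before CD45RBhigh. Filled red points passed an adjusted p of 0.05 in limma, and open grey points did not. St8sia6 lies near -1 in both comparisons with CD45RBhigh cells.

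St6gal1 read high in all 3 populations and was not called in any comparison. It read 11.71, 11.62 and 11.47 in Treg replicates 1, 2 and 4. It read 11.51, 11.54, 11.23 and 11.47 in CD45RBlow replicates 1 to 4, and 11.44, 11.44, 11.48 and 11.56 in CD45RBhigh replicates 1 to 4. All 11 arrays lay between 11.23 and 11.71, and the populations overlapped.

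The Treg mean of St6gal1 was 0.12 above CD45RBhigh cells (95% interval -0.067 to 0.31) and 0.16 above CD45RBlow cells (95% interval -0.027 to 0.35), with adjusted p of 0.416 and 0.313 in limma. The interval of the first allows a ratio of 0.954 to 1.24 and that of the second 0.981 to 1.27. CD45RBlow and CD45RBhigh cells differed by -0.040 (95% interval -0.21 to 0.13). B cells are rich in St6gal1, and of the B cell markers 4 rose and 0 fell in Treg against CD45RBhigh cells, 2 rose and 1 fell in Treg against CD45RBlow cells, and 3 rose and 0 fell in CD45RBlow against CD45RBhigh cells (3 and 1 at an unadjusted p under 0.05 in limma). With the block 4 were called in the last comparison, with Cd72 added in the lower direction (-0.30 before blocking, blocked adjusted p = 0.0153). Among all probe sets 18.9%, 12.5% and 12.6% were called in these comparisons, and 21.7% in the last with the block. The summed level over 5 measured genes of 9 listed ranged from 10.1 to 10.3 in Treg arrays, from 9.10 to 9.64 in CD45RBlow arrays and from 8.69 to 8.85 in CD45RBhigh arrays. Cd74, which encodes the class II invariant chain, averaged 8.95 in Treg, 7.01 in CD45RBlow and 6.49 in CD45RBhigh cells. In the same populations Cxcr5 averaged 8.18, 7.94 and 5.84. Fcer2a averaged 3.27, 3.23 and 3.35, under the first quartile of 3.64, and was not called in any comparison. The defining B cell markers Cd79a and Ms4a1 had no named probe set, and the part of B cells in the St6gal1 values was not tested.

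St6galnac6, St6galnac3 and St6galnac5 completed the family, with 0 calls in limma in the 3 comparisons (1 at an unadjusted p under 0.05). St6galnac6, which sialylates gangliosides and glycoprotein chains, averaged 6.46 ± 0.05 in Treg cells (SD, n = 3), 6.32 ± 0.10 in CD45RBlow cells and 6.25 ± 0.17 in CD45RBhigh cells (SD, n = 4 each). Its Treg to CD45RBhigh difference was 0.21 (95% interval 0.00137 to 0.42, adjusted p = 0.164). In the genome it neighbours St6galnac4 on chromosome 2, again with 0 protein-coding genes between, and its Treg to CD45RBlow difference was 0.14 (95% interval -0.069 to 0.35).

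St6galnac3, an enzyme of disialyl T and ganglioside synthesis, averaged 4.45 ± 0.12 in Treg cells, while all 4 CD45RBlow arrays and 1 CD45RBhigh array held the same deposited value, 4.37. Identical values in 3 or more arrays were found in 387 probe sets (31.1%), so an SD of 0 there does not measure the spread between samples. St6galnac5, a ganglioside enzyme best known from brain, read 2.81 to 3.13 over the 11 arrays, all under the first quartile. Differences at that level cannot be told from background, and a transcript that was not detectable there is not shown to be absent.

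Counted together, 1 of the 9 genes fell and 0 rose in Treg against CD45RBhigh cells in limma, where 18.9% of all probe sets were called, 10.3% higher and 8.59% lower (without adjustment 3 upward and 1 downward passed 0.05). Blocked on the replicate number, 2 of 9 were called there, against 26.5% of all probe sets. In Treg against CD45RBlow cells 1 rose and 1 fell, against a background of 12.5% (6.74% higher and 5.78% lower), or 2 of 9 against 19.7% with the block. In CD45RBlow against CD45RBhigh cells 2 rose and 1 fell, against 12.6% (7.62% higher and 4.98% lower), or 3 of 9 against 21.7% with the block. The groups did not overlap for 2, 2 and 3 of the 9 genes in these comparisons, where 25%, 21.3% and 17.8% of all probe sets did not overlap. The median difference of the 9 genes was 0.12, 0.085 and 0.040, beside -0.039, 0.044 and -0.081 over all probe sets. The genes called in at least 1 comparison were St8sia6, St6galnac1, St6galnac2 and St6galnac4. The share of all probe sets called in at least 1 comparison was not counted, so their number has no background to be set against.

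**Figure D4:**
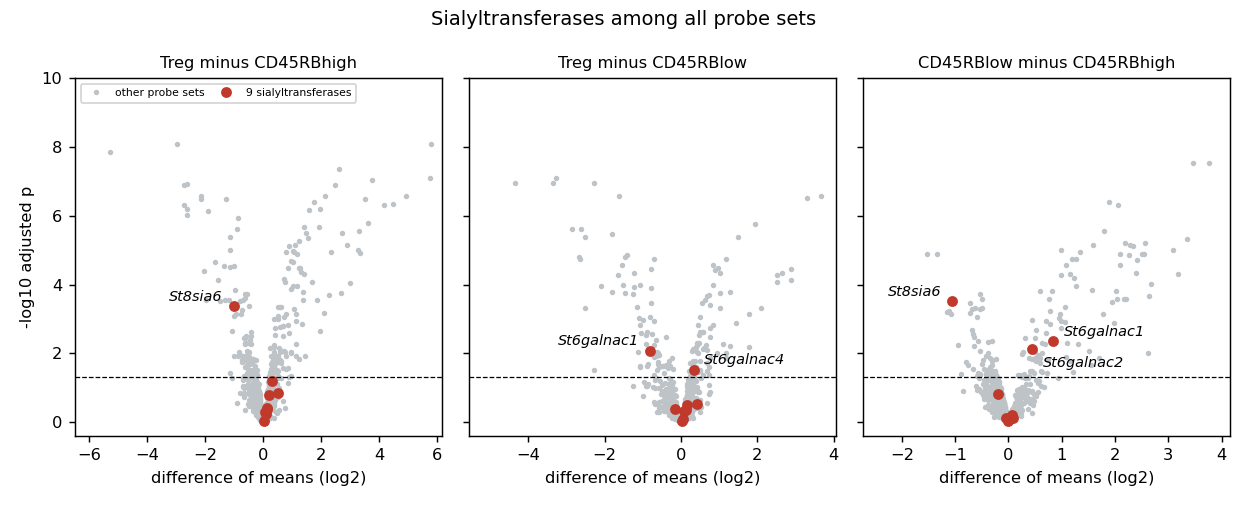
Difference of population means (log2, horizontal) against -log10 of the adjusted p from limma (vertical) for all 1246 probe sets in grey and the 9 sialyltransferases in red, with the dashed line at an adjusted p of 0.05. Called sialyltransferases are named, and all 6 calls lie within 1.1 log2 units of 0.

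Other sialyltransferases on the array were set beside these values. Among the 6 alpha-2,3 enzymes of the ST3GAL family, 2 rose and 1 fell in Treg against CD45RBhigh cells, 2 rose and 2 fell in Treg against CD45RBlow cells, and 3 rose and 0 fell in CD45RBlow against CD45RBhigh cells (3 and 0 at an unadjusted p under 0.05 in limma). Blocked on the replicate number, the ST3GAL calls were 4, 4 and 4, with St3gal1 added in the first (-0.48 before blocking, blocked adjusted p = 0.0167) and the third (0.37, blocked adjusted p = 0.0212). Over all probe sets 18.9%, 12.5% and 12.6% were called in these comparisons, and 26.5%, 19.7% and 21.7% with the block. St3gal6, which sialylates galactose of type 2 chains, averaged 4.87 in Treg, 8.13 in CD45RBlow and 7.50 in CD45RBhigh cells. St3gal2, which sialylates core O-glycans and gangliosides, averaged 7.73, 7.06 and 6.59 in the same populations. Of 4 measured alpha-2,6 or alpha-2,8 enzymes outside the 9 genes, St8sia1, the GD3 synthase, was the 1 called, and it was lower in Treg than in CD45RBlow cells by a log2 difference of -1.24 and lower in CD45RBlow than in CD45RBhigh cells by -0.66. The other 3, St8sia2, St8sia3 and St8sia5, were not called in any comparison, and their largest difference was -0.17, for St8sia5 in CD45RBlow against CD45RBhigh cells (adjusted p = 0.0881).

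Enzymes of sialic acid supply and removal were called in 1 of 8 cases upward and 3 downward in Treg against CD45RBhigh cells, in 1 and 2 in Treg against CD45RBlow cells, and in 0 and 1 in CD45RBlow against CD45RBhigh cells (1 and 1 at an unadjusted p under 0.05 in limma). With the block 4, 4 and 2 were called, with the sialidase Neu1 added in Treg against CD45RBlow cells (-0.30 before blocking, blocked adjusted p = 0.0212) and Neu3 in CD45RBlow against CD45RBhigh cells (0.37, blocked adjusted p = 0.0329). The background over all probe sets was 18.9%, 12.5% and 12.6% called, and 26.5%, 19.7% and 21.7% with the block. Cmah, which hydroxylates the donor CMP-Neu5Ac, averaged 8.47 in Treg, 9.18 in CD45RBlow and 9.84 in CD45RBhigh cells and was called in all 3 comparisons. Neu3, a sialidase of the plasma membrane, rose by 0.97 and 0.60 in Treg cells over CD45RBhigh and CD45RBlow cells. Cmas, which activates sialic acid, fell by 0.41 and 0.30 in the same comparisons. Neu3 averaged 4.85 in Treg, 4.25 in CD45RBlow and 3.88 in CD45RBhigh cells, below the Csf1r averages of 5.02 to 5.07. The Neu3 differences may therefore rest on readings near background.

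Among 22 enzymes that build the acceptors of these sialyltransferases, 2 rose and 8 fell in Treg against CD45RBhigh cells, 1 rose and 4 fell in Treg against CD45RBlow cells, and 2 rose and 2 fell in CD45RBlow against CD45RBhigh cells. With the replicate block the numbers called were 15, 8 and 8. The shares of all probe sets called were 18.9%, 12.5% and 12.6% in these comparisons, and 26.5%, 19.7% and 21.7% with the block. Galnt10 and Galnt6, which start the O-glycans that the ST6GALNAC enzymes use, fell in Treg against CD45RBhigh cells by 1.15 and 0.94, while B4galt4, a galactosyltransferase, rose by 1.22. The levels of these named genes therefore differed between Treg and CD45RBhigh cells beside those of the sialyltransferases.

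Of 9 lectins that bind sialic acid, 1 rose and 0 fell in Treg against CD45RBhigh cells (1 and 1 at an unadjusted p under 0.05 in limma), 0 rose and 1 fell in Treg against CD45RBlow cells (2 and 1 at an unadjusted p under 0.05), and 1 rose and 1 fell in CD45RBlow against CD45RBhigh cells. In the same comparisons 18.9%, 12.5% and 12.6% of all probe sets were called. The lectin that fell in the last was Siglech, whose averages in all 3 populations lay under the first quartile of 3.64. Cd22, which binds alpha-2,6 sialic acid and is best known from B cells, averaged 6.35 in Treg, 6.64 in CD45RBlow and 6.06 in CD45RBhigh cells and was called in all 3 comparisons. Ccr7, a carrier of polysialic acid in dendritic cells that guides cells to lymph nodes, fell by 1.01 in Treg and by 0.69 in CD45RBlow cells against CD45RBhigh cells. St8sia4 had no such order, and its CD45RBlow to CD45RBhigh difference was 0.088 (95% interval -0.35 to 0.53).

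Genes with the most similar course over the 11 arrays were found by the root mean square difference of log2 values centred on each gene's mean. For St8sia6 they were Galnt4, which starts O-glycans (0.20), Il6ra, the interleukin-6 receptor (0.22), and Ccr7 (0.27). For St6galnac1 they were Il1r1, an interleukin-1 receptor (0.17), Fzd5, a Wnt receptor (0.17), and Gcnt2, which branches lactosamine chains (0.20). For St6galnac2 they were Cd22 (0.11), Il17re, an interleukin-17 receptor chain (0.12), and Il15ra, the interleukin-15 receptor chain (0.13). For St6galnac4 they were Sdc3, a heparan sulfate proteoglycan (0.06), Hyal2, a hyaluronidase (0.09), and Cx3cl1, a chemokine (0.09). The arrays share the population means and the replicate sets, so these distances are a description.

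Markers of other cell types were few on the array. Of 6 measured myeloid and dendritic cell genes 0 were called in either Treg comparison in limma (1 lower and 0 at an unadjusted p under 0.05), and 1, Siglech, fell by 0.53 in CD45RBlow against CD45RBhigh cells (adjusted p = 0.0414), where 12.6% of all probe sets were called. Siglech averaged 3.18 in Treg, 3.01 in CD45RBlow and 3.54 in CD45RBhigh cells, all under the first quartile. The summed level of the 6 genes lay between 6.54 and 6.60 in Treg, 6.45 and 6.60 in CD45RBlow and 6.54 and 6.68 in CD45RBhigh arrays. Of 2 platelet genes Selp rose by 0.37 in Treg over CD45RBhigh cells and by 0.48 over CD45RBlow cells. RMA values have no 0, so no marker can be read as absent, and the part of these cells in the sialyltransferase values was not tested.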

How the data were processed

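Expression was deposited on a log2 scale, 1 value per probe set and array, which the authors made with Robust Multichip Average (RMA), per the submitters' processing notes and the series text; its version is not given in the sources used here. Each of 11 samples was hybridised to 1 array, and precision is limited by how many arrays there are. Values ran from 1.99 to 14.2 and were used as deposited.

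RefSeq identifiers in the probe set names gave symbols for 963 of 1246 probe sets (909 genes), through an annotation of GRCm38.p6 used for names, gene order and promoter sequence. The brightest probe set stood for a gene. The 3 population means were estimated together from all 11 arrays (limma 3.58.1, R 4.3.3). Variances were moderated by empirical Bayes (8 residual and 2.87 prior degrees of freedom), and the procedure was tested on simulated data. Tests were two-sided.

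Replicate numbers come from the labels. Deviations from population means correlated at 0.31 to 0.56 between arrays of 1 number in different populations (10 pairs), at 0.20 to 0.58 between other numbers of the same replicate set and at -0.65 to -0.18 between sets, so the numbers were taken to pair arrays, and results blocked on the number are given where they change a member's call or a list's count.

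Described were all 9 genes, up to 3 genes per list by adjusted p, and the 3 nearest genes per called member. Members and lists were chosen with earlier results of these data known. Alternatives were other scalings, moderation, filters and sets of arrays. The fits within replicate sets were added after seeing the data.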

Additional observations from a re-analysis of the deposited data

How the results depend on the processing

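Of 537 values of single genes under 20 alternatives, 500 kept their direction and their side of the threshold, 9 newly passed, 8 no longer passed and 20 changed sign, among them 0 of the values called. Many of these values could not change sign. Leaving out an array of the population not compared, using only the arrays compared, filtering dim probe sets and changing the moderation leave the difference itself as it was. Only the adjusted p can move in those fits. In Treg against CD45RBhigh cells the count called was 1, and it was 2 with the replicate block, 2 with the replicate set as a covariate, 2 with only the arrays compared, 2 with trend and robust moderation, 3 within replicates 1 and 2, and 1 to 2 without single arrays. In Treg against CD45RBlow cells the count was 2, and it was 1 with only the arrays compared, 1 to 2 without single arrays, and 0 in limma within replicates 3 and 4 (2 at an unadjusted p under 0.05). In CD45RBlow against CD45RBhigh cells it stayed at 2 to 4. The replicate block, which treats arrays of 1 number as paired, changed the call of St8sia4 in Treg against CD45RBhigh cells and no other call of the 9 genes. The cause of these changes was not tested.

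Sign changes were all of values that did not pass in either fit. With the replicate block they were St6galnac1 in Treg against CD45RBhigh cells (-0.022) and St8sia6 in Treg against CD45RBlow cells (-0.063), and with the replicate set as a covariate the same St6galnac1 value (-0.017). With quantile normalization once more they were, in CD45RBlow against CD45RBhigh cells, St6gal1 (0.015) and St6galnac6 (-0.097), and St6galnac4 newly passed there (-0.30, adjusted p = 0.0311). Within replicates 1 and 2 they were St6galnac1 in Treg against CD45RBhigh cells (-0.028), St8sia6 in Treg against CD45RBlow cells (-0.022), and St6gal1 (0.090) and St6galnac5 (-0.082) in CD45RBlow against CD45RBhigh cells. Within replicates 3 and 4 they were St6gal1 in Treg against CD45RBhigh cells (-0.049), St6galnac5 in Treg against CD45RBlow cells (-0.0070) and St8sia4 in CD45RBlow against CD45RBhigh cells (-0.13). Without single arrays the ranges that crossed 0 were -0.0068 to 0.053 for St6galnac1 in Treg against CD45RBhigh cells and -0.085 to 0.14 for St8sia6 in Treg against CD45RBlow cells. In CD45RBlow against CD45RBhigh cells they were -0.073 to 0.030 for St6gal1, -0.028 to 0.0085 for St6galnac3, -0.025 to 0.081 for St6galnac5 and -0.026 to 0.23 for St8sia4. The filter on dim probe sets tested 940 probe sets and left out St6galnac5. Another probe set per gene could not be tried, since each of the 9 genes had 1.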
